A study of Mus musculus with 24 samples.

Results

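Cyclins, cyclin-dependent kinases (CDKs), the MCM helicase genes and a few genes of replication and mitosis were examined in the tibialis anterior, a fast leg muscle, of mice that lack HIRA in their myofibres. Members were the probe rows whose annotated symbol was Ccn with a letter and a number, Cdk or Mcm with a number, or Rrm1, Rrm2, Kif11, Top2a, Pcna or Mki67. This rule found 58 of the 26423 rows of the array, and these rows stood for 46 of 17742 genes. It used symbols and no measured value. No row carried the symbol Pcna, Cdk4 or Ccnb1, and these genes were not analysed here.

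HIRA is a chaperone that deposits the histone variant H3.3 outside DNA replication. The 4 HiraCKO animals were Myf6 cre/+ with Hira flox/-, and the 4 control animals were Myf6 cre/+ with Hira flox/+, all 6 months old and of the strain C57BL6/J;129S1/SvImJ. Both groups thus carried the Cre allele at Myf6, a gene of differentiated muscle, control fibres kept 1 intact copy of Hira, and the null copy of HiraCKO animals lay in all of their cells. Each RNA went onto 3 arrays, 24 in all. The mean of the 3 arrays, on a log2 scale of intensity, was the value of an animal, and spreads are SDs over 4 animals.

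A cell divides by a fixed order of kinase activities. D-type cyclins with CDK4 or CDK6, and E-type cyclins with CDK2, carry it through G1 and into S phase, where the MCM ring opens DNA at the origins and ribonucleotide reductase supplies deoxynucleotides. Cyclins A and B with CDK1 then drive the cell into mitosis. Nuclei of adult myofibres have left this cycle for good, whereas satellite cells and the blood, vessel and connective tissue cells between fibres can divide. Other cyclins and CDKs (cyclins L and T, CDK7, CDK8, CDK9, CDK12, CDK13 and CDK19) act on RNA polymerase II, its Mediator complex or splicing, and serve transcription in cells that do not divide.

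The Hira probe was read first. Its log2 intensity was 8.63, 9.30, 8.52 and 8.83 in HiraCKO animals 1 to 4, against 8.85, 9.11, 8.92 and 8.99 in control animals 1 to 4. The groups overlapped, with a difference of -0.15 ± 0.17 (log2, SE; limma, adjusted p = 0.623; exact two-sided permutation p = 0.457, smallest possible 0.0286). Where the probe lies in the gene, inside or outside the floxed exons, is not stated, so it checks no genotype. The 6 measured myofibre markers, among them Acta1, Ckm and Tnnt3, had summed intensities of 1581810 to 2343690 in HiraCKO and 1918630 to 2521260 in control muscle. None of the 6 passed the test (limma; 0 also had an unadjusted p under 0.05), and their differences were between -0.35 and -0.12. Every array had the same deposited median of 626.429, and 5% of all values lay under 38.8, the floor used here.

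Of the 46 genes, 3 rose and 1 fell in HiraCKO muscle at an adjusted p under 0.05 (limma, Benjamini-Hochberg adjustment over all 17742 genes). These were 6.52% and 2.17% of the members, beside 4.28% of all genes that rose and 5.01% that fell, so the share of changed members (8.70%) was near that of all genes (9.28%). The risers were Rrm2, the small subunit of ribonucleotide reductase, Cdk14, a kinase of the Wnt pathway, and Kif11, the motor that pushes spindle poles apart. The gene that fell was Mcm2, a subunit of the replicative helicase. The groups did not overlap in 12 members, or 26.1%, where 17.5% of all genes did not overlap. In 4 of these HiraCKO was higher and in 8 lower, beside 7.24% and 10.2% of all genes. At an unadjusted p under 0.05 there were 15 members, or 32.6%, against 24% of all genes. The median difference over the 46 members was -0.019 (log2), beside -0.066 over all genes, and 21 members lay above 0 and 25 below it. For 31 members the 95% interval of the difference stayed within 1.5-fold in either direction. It reached that size in 11 that did not pass the test.

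**Figure D1:**
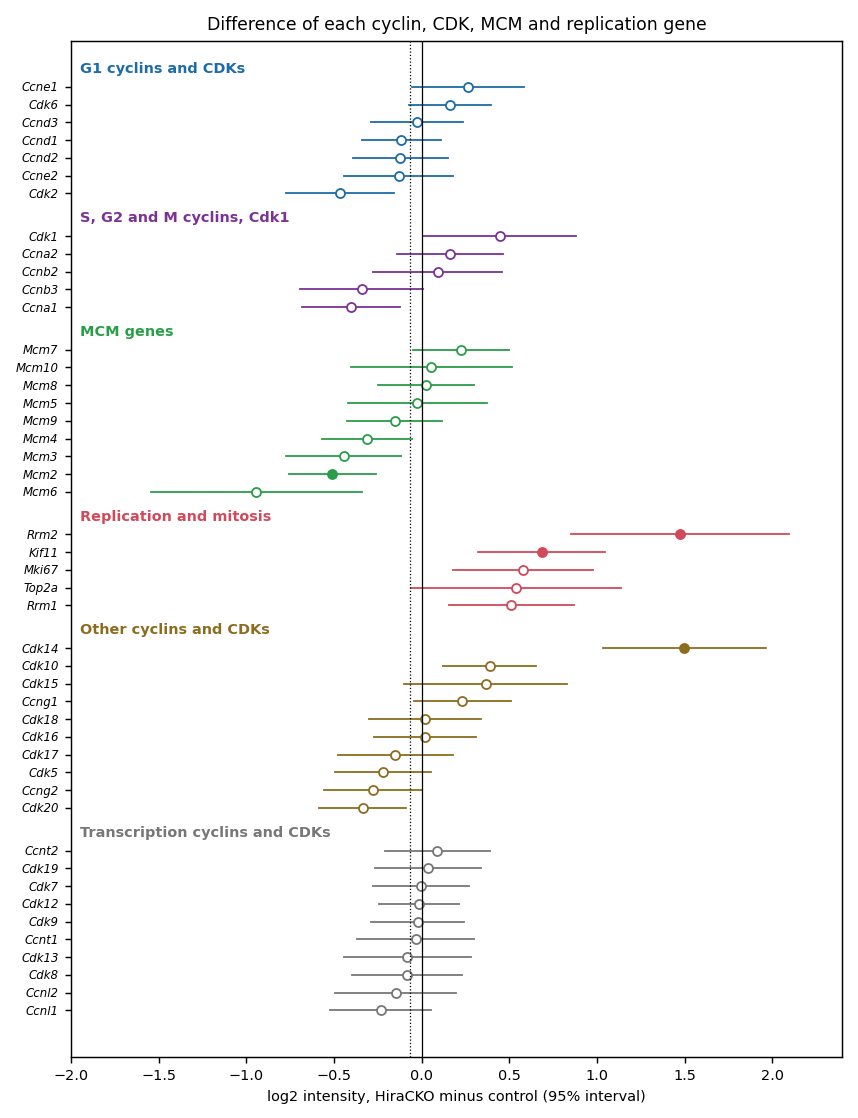
Each point is the log2 intensity difference, HiraCKO minus control, of 1 member gene with its 95% interval (limma, 4 animals per group), ordered by role and size. Filled points are the 4 genes that passed at an adjusted p under 0.05 (Rrm2, Kif11, Cdk14 and Mcm2), the solid line marks 0 and the dotted line the median of all genes, -0.066. All 5 replication and mitosis genes lie to the right of 0, and the transcription cyclins and CDKs lie close to it.

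The promoters of the 4 genes that passed, and that of Mcm6, whose difference was the most negative of the MCM genes, are printed because promoters of this family are known for sites of the E2F, DREAM and NF-Y factors, which time transcription to the cell cycle. They come from RefSeq, build GRCm38.p6, 5′ to 3′ along the gene, with 250 bases before and 50 after the transcription start. Capitals mark every match, on either strand and with overlapping matches run together, to TTTCCCGC, TTTCGCGC, TTTGCCGC or TTTGGCGC (E2F letters), to TTTGAA or TTCGAA (the CHR letters read by DREAM), or to CCAAT (NF-Y letters).
Rrm2 (chr12:24708004-24708303, plus strand): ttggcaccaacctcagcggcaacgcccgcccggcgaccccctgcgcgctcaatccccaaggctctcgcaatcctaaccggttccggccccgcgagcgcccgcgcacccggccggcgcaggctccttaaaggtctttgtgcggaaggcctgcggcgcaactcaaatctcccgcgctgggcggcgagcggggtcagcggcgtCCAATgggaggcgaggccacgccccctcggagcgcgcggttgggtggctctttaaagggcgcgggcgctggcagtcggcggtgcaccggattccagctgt
Kif11 (chr19:37376132-37376431, plus strand): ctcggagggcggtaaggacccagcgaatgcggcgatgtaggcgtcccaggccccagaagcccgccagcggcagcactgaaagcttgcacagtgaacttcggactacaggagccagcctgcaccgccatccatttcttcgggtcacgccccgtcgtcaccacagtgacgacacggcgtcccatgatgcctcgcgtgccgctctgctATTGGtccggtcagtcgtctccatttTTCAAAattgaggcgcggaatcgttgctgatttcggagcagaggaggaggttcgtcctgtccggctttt
Cdk14 (chr5:5380202-5380501, minus strand): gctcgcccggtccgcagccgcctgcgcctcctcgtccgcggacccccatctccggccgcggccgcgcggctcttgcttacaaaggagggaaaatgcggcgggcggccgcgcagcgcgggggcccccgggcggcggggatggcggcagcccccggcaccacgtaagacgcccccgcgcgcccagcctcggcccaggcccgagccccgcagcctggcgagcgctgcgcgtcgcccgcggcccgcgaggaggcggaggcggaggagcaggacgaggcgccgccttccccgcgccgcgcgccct
Mcm2 (chr6:88898731-88899030, minus strand): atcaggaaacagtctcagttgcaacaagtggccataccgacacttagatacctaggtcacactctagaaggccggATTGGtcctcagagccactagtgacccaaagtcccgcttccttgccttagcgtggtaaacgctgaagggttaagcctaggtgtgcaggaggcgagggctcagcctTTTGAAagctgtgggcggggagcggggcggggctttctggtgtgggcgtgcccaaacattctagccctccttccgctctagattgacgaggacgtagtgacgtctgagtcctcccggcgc
Mcm6 (chr1:128359656-128359955, minus strand): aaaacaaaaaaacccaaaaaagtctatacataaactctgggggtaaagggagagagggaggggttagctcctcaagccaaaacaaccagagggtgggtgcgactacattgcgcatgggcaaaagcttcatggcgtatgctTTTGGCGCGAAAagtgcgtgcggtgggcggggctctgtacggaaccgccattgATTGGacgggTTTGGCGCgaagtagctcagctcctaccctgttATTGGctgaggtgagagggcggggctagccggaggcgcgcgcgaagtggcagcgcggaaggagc

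The windows of the 4 genes that passed did not share 1 set of letters. Rrm2 held CCAAT alone, Kif11 and Mcm2 held CCAAT and CHR letters, and Cdk14 held none of the letters searched. Mcm6 held 3 matches to the E2F letters and 2 to CCAAT. Windows were listed for 38 of the 46 genes, 41 windows in all. Of these, 7 held E2F letters (17.1%), where 2.26% of 32851 windows of all genes did, and 26 held CCAAT (63.4% against 37.4%). The CHR letters were in 8 (19.5% against 19.2%). The 7 windows with E2F letters were those of Cdk1, Cdk2, Mcm3, Mcm5, Mcm6, Mcm8 and 1 of the windows of Mcm7, and 0 of these genes passed the test of expression (limma; at an unadjusted p under 0.05 Cdk1 was higher, and Cdk2, Mcm3 and Mcm6 were lower). A match of letters is a description and not a mapped site.

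Rrm2, Rrm1, Kif11, Mki67 and Top2a, the 5 measured genes that the rule names singly, lay higher in HiraCKO muscle. Of the 5, 2 passed the test, where 4.28% of all genes rose. These 5 do not stand for mitosis genes as a class, of which others are given below. Rrm2, whose protein limits the rate at which ribonucleotide reductase makes deoxynucleotides, had log2 intensities of 8.86, 10.34, 9.66 and 8.94 in HiraCKO animals, against 8.12, 7.73, 7.92 and 8.15 in control animals. Every HiraCKO animal lay above every control animal, and the HiraCKO animals differed more among themselves (SD 0.69) than the control animals (SD 0.19). The gene rose 2.77-fold, with a difference of 1.47 ± 0.28 (log2, SE; limma, adjusted p = 0.0087). The 3 arrays of HiraCKO animal 4 did not agree: their intensities were 128, 960 and 959, a range of 2.91 on the log2 scale, where the median range over the 8 animals was 0.28. In control animal 2 the 3 arrays read 376, 262 and 97.5. The difference was 1.91 without hybridisation 1, which holds the value of 128. Without hybridisation 3, which holds the 97.5 of control animal 2 and the 959 of HiraCKO animal 4, the difference was 1.14. HiraCKO animal 4 then rested on 128 and 960. The call was lost in that setting (limma, adjusted p = 0.0544). It was also lost within either of the 2 series of lower and higher animal numbers in the labels (0.183 and 0.0742).

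Rrm1, the large subunit of the same enzyme, had values of 10.59, 10.52, 10.60 and 10.79 in HiraCKO animals, against 10.17, 10.56, 9.85 and 9.87 in control animals. Only control animal 2 reached into the HiraCKO range. The difference of 0.51 ± 0.16 (SE) did not pass (adjusted p = 0.0755, limma), and a second row of Rrm1 gave 0.33 ± 0.15. The 2 subunits therefore lay in the same direction, Rrm2 past the threshold and Rrm1 not, and the difference between them was not tested.

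Kif11, a kinesin of the bipolar spindle, read 7.42, 7.83, 7.72 and 8.10 in HiraCKO animals, against 7.31, 6.80, 7.05 and 7.17 in control animals. The groups did not overlap, although HiraCKO animal 1 lay only just above control animal 1. The gene rose 1.61-fold (0.68 ± 0.16, log2 and SE; limma, adjusted p = 0.0252). Its levels were low, 218 in HiraCKO and 136 in control muscle, where 125 was the highest 5th percentile of any array. Leaving out any 1 of control animal 3 and HiraCKO animals 2, 3 and 4 ended the call (limma, adjusted p up to 0.0617). Over all 8 such fits the difference was 0.57 to 0.80, and without hybridisation 2 it was 0.66 (adjusted p = 0.0581).

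Mki67, which encodes the Ki-67 protein of dividing cells, read 13.06, 12.87, 12.94 and 13.15 in HiraCKO animals, against 12.91, 12.44, 12.42 and 11.95 in control animals. The HiraCKO animals lay close together (SD 0.12), and the control animals were spread (SD 0.39), with control animal 1 inside the HiraCKO range. The difference was 0.58 ± 0.18 (log2, SE, adjusted p = 0.0710, limma). The second row of Mki67 gave 0.40 ± 0.13, higher in HiraCKO without overlap (adjusted p = 0.0853, limma, every row as a feature). The 2 rows disagreed in level, 8227 in HiraCKO and 5514 in control muscle for the brightest row, against 538 and 407 for the second. Why they disagreed was not tested. The mean of the rows gave 0.49 (adjusted p = 0.0375, limma). Top2a, the topoisomerase that untangles replicated chromosomes, had a level of 134 in HiraCKO and 92.6 in control muscle, the control level not above 125, and a difference of 0.54 ± 0.27 (adjusted p = 0.257, limma). Its groups overlapped, and control animal 2 (5.72) was the lowest of the 8. The median difference of the 5 genes was 0.58, beside -0.066 over all genes. Mki67 and Rrm1 each passed in 8 of 27 other settings. Among these were quantile normalization (limma, adjusted p = 0.0352 and 0.0388) and cyclic loess (0.0293 and 0.0279). Those 2 settings called 2569 and 2463 of all genes, against 1647 in the main fit.

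**Figure D2:**
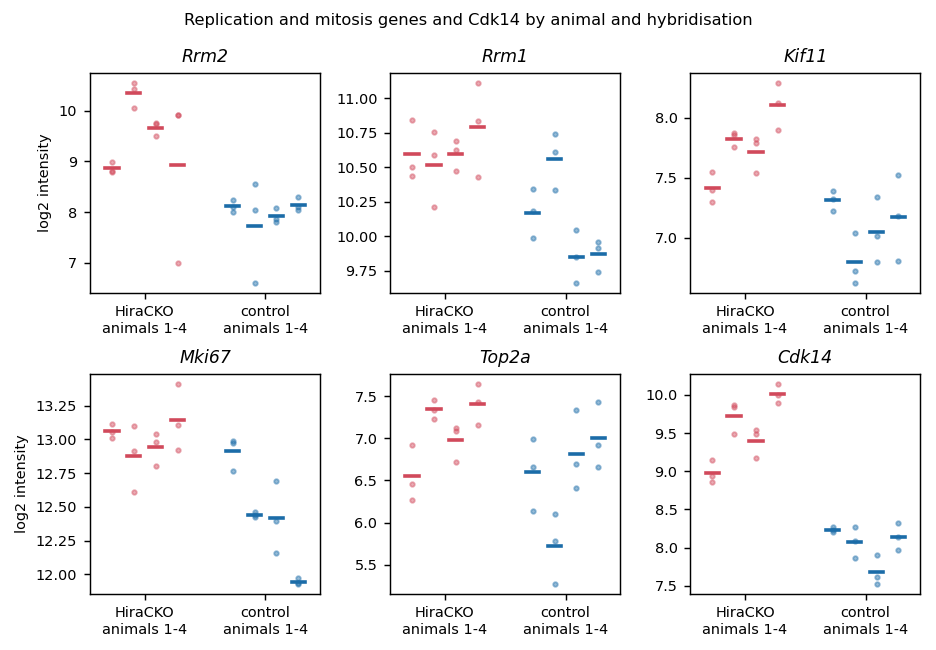
Log2 intensity of the 5 replication and mitosis genes and Cdk14 in 4 HiraCKO animals (left, red) and 4 control animals (right, blue). Dots are the 3 hybridisations of an animal and bars their mean. In Rrm2, Kif11 and Cdk14 every HiraCKO bar lies above every control bar, and 1 array of HiraCKO animal 4 in Rrm2 lies far below the other 2 of that animal.

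Of the 9 MCM genes 1 fell and 0 rose, where 5.01% of all genes fell. In 4 of the 9 the groups did not overlap, all lower in HiraCKO muscle, where 10.2% of all genes lay lower without overlap. Mcm2 read 9.33, 9.14, 9.20 and 9.43 in HiraCKO animals, against 9.83, 9.69, 9.74 and 9.87 in control animals. All 8 animals lay close to their group's mean, with SDs of 0.13 in HiraCKO and 0.082 in control animals. The gene fell 1.43-fold (-0.51 ± 0.11, log2 and SE; limma, adjusted p = 0.0175), and it no longer passed without HiraCKO animal 3 (0.0615) or control animal 4 (0.0533).

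Mcm6, another subunit of the ring, read 7.81, 7.93, 6.72 and 7.33 in HiraCKO animals, against 8.15, 8.88, 7.96 and 8.57 in control animals. The groups did not overlap but came close, HiraCKO animal 2 lying just below control animal 3. Its difference of -0.94 ± 0.27 (log2, SE) was the most negative of all members, and it did not pass (adjusted p = 0.0544, limma). Mcm3 read 8.25, 8.34, 7.87 and 8.52 in HiraCKO animals, against 8.76, 8.85, 8.59 and 8.56 in control animals. Mcm4 read 10.38, 10.37, 10.24 and 10.36 in HiraCKO animals, against 10.81, 10.77, 10.48 and 10.55 in control animals. In both genes the groups were apart by little, and the differences of -0.45 ± 0.15 for Mcm3 and -0.31 ± 0.12 for Mcm4 did not pass (adjusted p = 0.0895 and 0.125, limma).

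The other subunits of the ring lay differently. Mcm5 read 9.69, 10.61, 9.92 and 10.22 in HiraCKO animals, against 9.999, 10.17, 10.27 and 10.10 in control animals. Mcm7 read 10.03, 10.36, 10.08 and 10.26 in HiraCKO animals, against 9.93, 10.17, 9.85 and 9.89 in control animals. The groups overlapped in both, with differences of -0.025 (95% interval -0.42 to 0.37) for Mcm5 and 0.22 (-0.049 to 0.50) for Mcm7. Mcm8 and Mcm9, which act in repair by recombination, differed by 0.024 and -0.15, and Mcm10, which helps to start forks, by 0.055; none passed. Mcm8 changed sign in some settings, for example -0.059 with the median of hybridisations. The median over the 9 MCM genes was -0.15, beside -0.066 over all genes. With all 24 arrays in 1 fit and the animal as a random block, Mcm3, Mcm4 and Mcm6 passed too (limma, adjusted p = 0.0269, 0.0171 and 0.00338). That fit called 3149 of all genes, against 1647 in the main fit. It applies 1 correlation between hybridisations of an animal (0.38) to every gene. In Mcm6 the animals differed more (SD 0.55 in HiraCKO and 0.42 in control) than the hybridisations (SD 0.26), so its p-value there is too small.

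**Figure D3:**
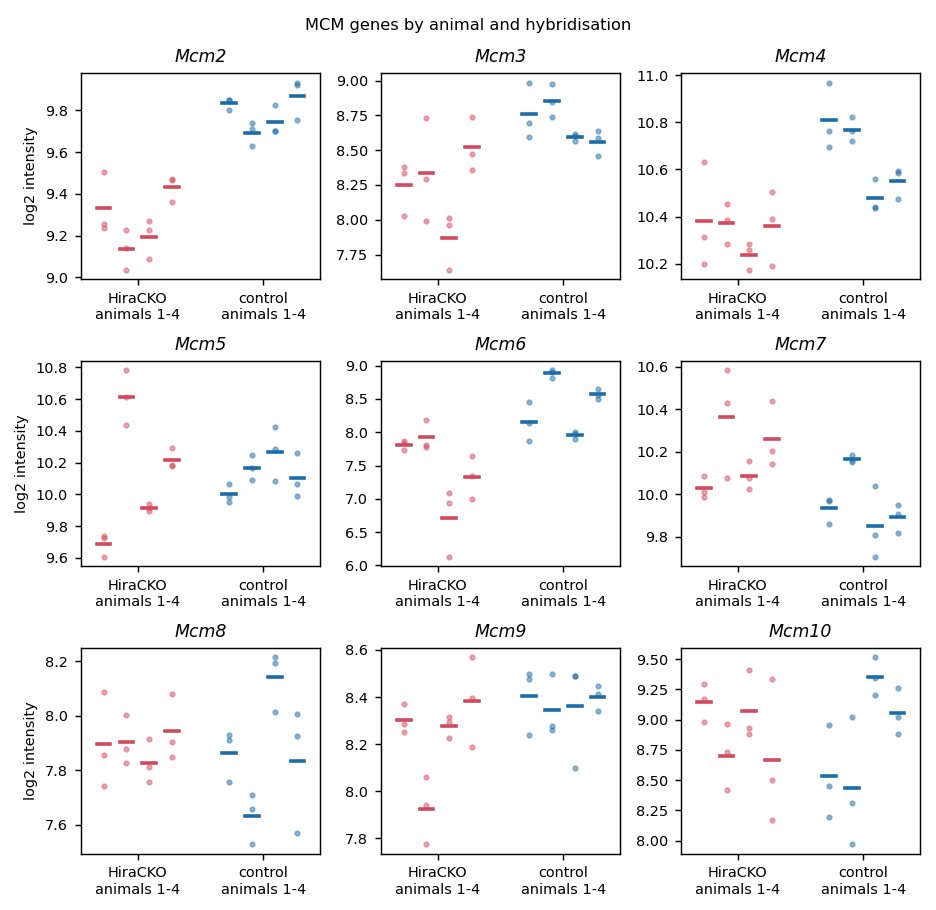
Log2 intensity of the 9 MCM genes in 4 HiraCKO animals (left, red) and 4 control animals (right, blue), with dots for the 3 hybridisations of an animal and bars for their mean. The bars of the groups do not overlap in Mcm2, Mcm3, Mcm4 and Mcm6, where HiraCKO is lower, and overlap in the other 5.

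Among cyclins and CDKs of G1 and of S, G2 and M, 0 of 12 passed (limma), and at an unadjusted p under 0.05 Cdk1 was higher and Cdk2 and Ccna1 lower. Cdk2, the kinase of the G1 to S step, read 9.93, 10.12, 9.90 and 9.86 in HiraCKO animals, against 10.78, 10.28, 10.27 and 10.33 in control animals. The groups did not overlap, and control animal 1 lay well above the other control animals. Its difference was -0.46 ± 0.14 (log2, SE; adjusted p = 0.0624, limma), and a second, dimmer row gave -0.26 ± 0.13. Cdk2 passed in 10 of 27 other settings, among them quantile normalization (adjusted p = 0.0319) and cyclic loess (0.0443), both with limma.

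None of the D-type cyclins, which link growth signals to the cycle, passed. Ccnd1 read 11.85, 11.81, 11.82 and 11.67 in HiraCKO animals, against 11.85, 11.88, 11.95 and 11.94 in control animals. HiraCKO and control animals were apart by almost nothing, and the difference was -0.12 (95% interval -0.34 to 0.11). The differences of Ccnd2 and Ccnd3 were -0.12 (-0.39 to 0.15) and -0.026 (-0.29 to 0.24). The second row of Ccnd2 gave -0.42 ± 0.19 (adjusted p = 0.223, limma, every row as a feature). The second row of Ccnd3 read higher in HiraCKO muscle (0.45 ± 0.16; adjusted p = 0.128, limma, every row as a feature), and the mean of its rows gave 0.21, so no direction is given for Ccnd3. The E-type cyclins Ccne1 and Ccne2 differed by 0.26 ± 0.15 and -0.13 ± 0.14, and Cdk6, a partner of D-type cyclins, by 0.16 ± 0.11.

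Cdk1, the kinase of mitotic entry, was dim in both groups, with levels of 120 in HiraCKO and 88.4 in control muscle, not above 125. It read 6.99, 7.11, 6.66 and 6.89 in HiraCKO animals, against 6.498, 5.86, 6.66 and 6.84 in control animals, and 1 of its 24 values lay at the floor. The groups overlapped (0.45 ± 0.20, log2 and SE; adjusted p = 0.195, limma), and control animal 2 was again the lowest. Cdk1 passed in only 2 of 26 other settings, both with limma. These were quantile normalization (0.57, adjusted p = 0.00649) and cyclic loess (0.57, adjusted p = 0.0151), which called more of all genes than the main fit. No fold is given for Cdk1, because neither group rose above that background level. Ccna2, which acts with CDK2 and CDK1, differed by 0.16 (95% interval -0.14 to 0.46), and Ccnb2, a cyclin of mitosis, by 0.090 (-0.28 to 0.46) at levels of 127 and 119 in HiraCKO and control muscle. Ccna1 and Ccnb3 are known mainly from germ cells. Ccna1 read 7.12, 7.22, 6.90 and 7.38 in HiraCKO animals, against 7.61, 7.41, 7.62 and 7.61 in control animals, a difference of -0.40 ± 0.13 without overlap (adjusted p = 0.0738, limma). It passed in 3 of 27 other settings, quantile normalization (adjusted p = 0.0272), cyclic loess (0.0464) and array weights (0.0136), all with limma. Ccnb3 lay at the floor in 13 of 24 arrays.

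Cdk14 had the largest difference of all 46 members. Its protein is a kinase that, bound to cyclin Y, phosphorylates the Wnt coreceptor LRP6. It read 8.98, 9.73, 9.40 and 10.01 in HiraCKO animals, against 8.23, 8.07, 7.68 and 8.14 in control animals. The groups were well apart, with the lowest HiraCKO animal clearly above the highest control animal. The gene rose 2.83-fold, with a level of 740 in HiraCKO and 262 in control muscle and a log2 difference of 1.499 ± 0.21 (SE; limma, adjusted p = 0.00146). The 3 hybridisations of an animal ranged over at most 0.39. Cdk14 kept its call without any 1 of the 8 animals (difference 1.34 to 1.68) and lost it only in the series of lower animal numbers alone (adjusted p = 0.136, 2 animals per group, limma).

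The other 9 CDKs and cyclins outside the core cycle and transcription did not pass, where 9.28% of all genes did. Cdk10 read 10.94, 11.15, 10.94 and 10.92 in HiraCKO animals, against 10.71, 10.73, 10.38 and 10.57 in control animals. Cdk20, a kinase tied to primary cilia, read 9.79, 9.88, 9.81 and 9.88 in HiraCKO animals, against 10.20, 10.36, 10.002 and 10.16 in control animals. In neither gene did the groups overlap, Cdk10 lying higher (0.39 ± 0.12; adjusted p = 0.0697) and Cdk20 lower in HiraCKO muscle (-0.34 ± 0.11; adjusted p = 0.0872, limma). Both had a second row with a difference of the same sign, 0.43 for Cdk10 and -0.50 for Cdk20. Cdk10 passed in 7 of 27 other settings and Cdk20 in 6 of 27. Both did so with quantile normalization (limma, adjusted p = 0.0168 for Cdk10 and 0.0302 for Cdk20) and with cyclic loess (0.0147 and 0.0369). Ccng1, a target of p53, differed by 0.23 ± 0.13, and Ccng2, a cyclin known from cell cycle arrest, by -0.28 ± 0.13 (adjusted p = 0.284 and 0.207, limma). Ccng1 passed in only 2 of 27 other settings, quantile normalization (0.32, adjusted p = 0.0315) and cyclic loess (0.35, adjusted p = 0.0240), both with limma. Cdk5, Cdk15, Cdk16, Cdk17 and Cdk18 had differences between -0.22 and 0.37, and their groups overlapped.

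The cyclins and CDKs of transcription lay close to 0. None of the 10 passed, 0 had an unadjusted p under 0.05 (limma), 0 had groups without overlap, and the 95% interval of every one stayed within 1.5-fold. Their differences lay between -0.23, for the splicing cyclin Ccnl1, and 0.089, for Ccnt2, a partner of CDK9, with a median of -0.030. Ccnl1 read 11.69, 11.91, 11.65 and 11.69 in HiraCKO animals, against 12.25, 12.001, 11.85 and 11.79 in control animals, which overlapped. Cdk8 and Cdk19, the kinases of Mediator, differed by -0.086 and 0.035, Cdk9 by -0.024, and Cdk12 and Cdk13, which phosphorylate RNA polymerase II during elongation, by -0.015 and -0.082. Cdk7, which activates other CDKs and acts in the initiation factor TFIIH, differed by -0.002 in its brightest row. Another of its 3 rows differed by -0.57 ± 0.13 (adjusted p = 0.0273, limma, every row as a feature), and the third by 0.066; this row is named because of its value. In that fit 5 of 58 member rows passed (8.62%), where 7% of all rows did.

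**Figure D4:**
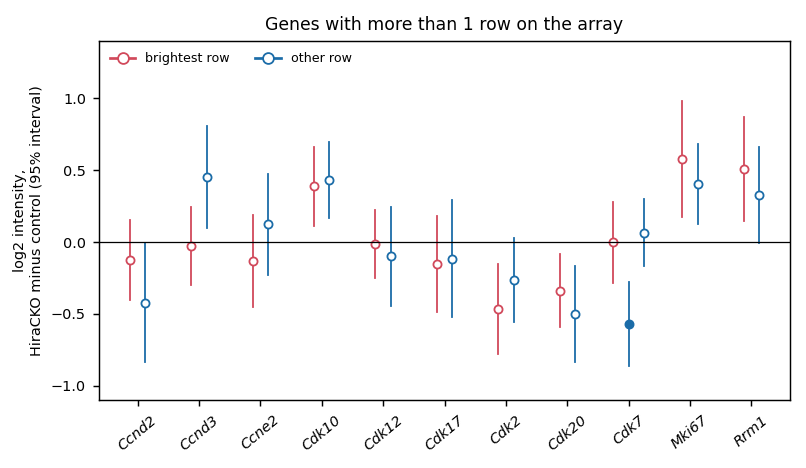
Log2 intensity difference, HiraCKO minus control, with 95% interval for each row of the 11 member genes that have more than 1 row (limma over all 26423 rows). Red marks the row of highest mean and blue the other rows, and the filled point, a row of Cdk7, is the only one past an adjusted p of 0.05. The rows share a sign in 8 genes and differ in Ccnd3, Ccne2 and Cdk7.

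The spread of the members was that of other genes. The median SD between animals was 0.16 in HiraCKO and 0.18 in control muscle for members, beside 0.18 and 0.19 over all genes, and the median SD between hybridisations was 0.16 beside 0.18. Rrm2 stood out with 0.71 between hybridisations, followed by Cdk15 (0.54) and Ccnb3 (0.45).

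**Figure D5:**
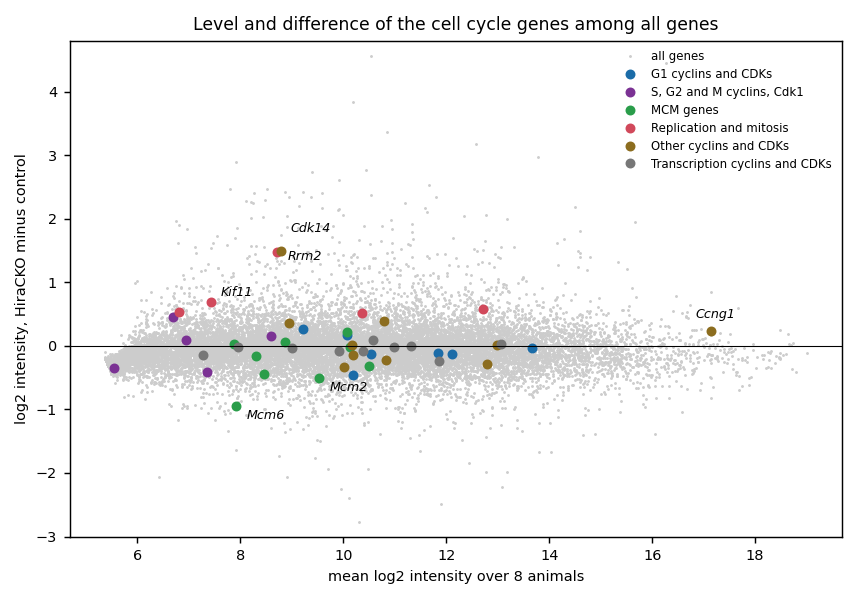
The mean log2 intensity over 8 animals (horizontal) against the log2 difference, HiraCKO minus control (vertical), for 17742 genes in grey and for the 46 members coloured by role. Rrm2 and Cdk14 lie at 1.47 and 1.499 and Mcm6 at -0.94, apart from the band near 0 that holds most members.

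Of 96 measured genes of the cell cycle outside the rule, 3 rose and 5 fell, shares near the 4.28% and 5.01% of all genes. Of 37 replication genes 4 fell and 1 rose. Their median of -0.079 was close to the -0.066 of all genes, and 25 of 37 lay below 0, beside 10588 of 17742 genes. Those that fell were Rpa3, a subunit of the single-strand binding protein (1.73-fold), Orc6 of the origin recognition complex (1.46-fold), Rfc3 of the clamp loader (1.45-fold) and Chaf1a of the replication-coupled histone chaperone CAF-1 (1.38-fold). Rpa3 read 10.46, 10.96, 10.33 and 11.08 in HiraCKO animals, against 11.24, 11.44, 11.64 and 11.68 in control animals (-0.79 ± 0.18; limma, adjusted p = 0.0213). Uhrf1, which carries DNA methylation through replication, rose at least 1.56-fold (adjusted p = 0.00758, limma), and read 7.46, 7.58, 7.44 and 7.95 in HiraCKO animals, against 6.69, 5.95, 6.70 and 6.85 in control animals. Its control level of 93.5 was not above 125, so the fold is a bound against that level.

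Of 28 mitosis genes 1 rose, Smc4 of condensin (1.504-fold, adjusted p = 0.0473, limma), and 0 fell. Of the 28, 17 lay above 0 and 11 below it, with a median of 0.076. Without passing, Aurkb lay higher (0.29 ± 0.11; adjusted p = 0.114, limma) and Kif20a lower (-0.48 ± 0.14; adjusted p = 0.0557), both without overlap. Of 22 inhibitors and Rb and E2F genes 1 rose and 1 fell. Cdkn1a, the inhibitor p21, read 13.06, 13.25, 13.04 and 12.96 in HiraCKO animals, against 12.48, 12.85, 12.60 and 12.38 in control animals, without overlap, and rose 1.41-fold (adjusted p = 0.0375, limma). E2f6, a repressor, fell 1.36-fold (adjusted p = 0.0432, limma). Of a list of 9 genes, made of cyclins without a number, CDK partners and Cdk5rap1, 0 passed (limma; 3 were lower at an unadjusted p under 0.05). These were Ccnh and Mnat1, the partners of CDK7 (-0.40 ± 0.12 and -0.42 ± 0.14), and Cdk5rap1 (-0.34 ± 0.11). Without any 1 animal, the calls of Cdkn1a, E2f6, Rfc3 and Smc4 were lost for 7 of 8 animals each, that of Chaf1a for all 8, Orc6 for 5, Rpa3 for 4 and Uhrf1 for 0.

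Whole muscle holds dividing cells besides fibres, and fewer cells of a type and less RNA per cell cannot be told apart in it. Of 14 macrophage markers 2 rose, Mpeg1 and Cx3cr1, and 1 fell, Cd163, with a median of 0.43 and summed intensities of 25358 to 70859 in HiraCKO and 19566 to 42500 in control animals. The mean log2 level of this list was 10.14, 10.78, 11.34 and 10.68 in HiraCKO animals, against 9.85, 10.12, 10.27 and 10.74 in control animals. All 12 endothelial markers lay lower and 3 fell, with sums of 77314 to 102919 in HiraCKO and 112437 to 138007 in control animals. Among 7 satellite cell markers Calcr fell and none rose, with sums of 10739 to 12691 in HiraCKO and 11666 to 12975 in control animals. The HiraCKO level of Calcr, 74.2, was not above background. At an unadjusted p under 0.05 (limma) 1 marker was higher and 2 were lower. The 1 higher was Cdh15 (0.44 ± 0.13, adjusted p = 0.0638, limma), without overlap. Of 6 lymphocyte markers Cd3e rose, with sums of 3663 to 3976 in HiraCKO and 3318 to 3758 in control animals, and Ms4a1 was not above background in either group. Of 10 fibroblast markers 0 passed (limma; 1 higher and 3 lower at an unadjusted p under 0.05), with sums of 148102 to 273729 in HiraCKO and 169043 to 248070 in control animals, and the 1 higher, Col1a1, was not above background in either group. Of 3 erythroid markers Alas2 fell, with sums of 1236 to 2625 in HiraCKO and 2864 to 4009 in control animals. Most of these sums was Alas2 itself, at 1531 in HiraCKO and 3159 in control muscle. Epb42 was not above background in either group, nor was the HiraCKO level of Slc4a1, 114. The part of these cells in the differences of the cell cycle genes was not tested.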

How the data were processed

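Labelled total RNA of frozen tibialis anterior was hybridised to arrays, per the labels' protocols; the label field names Cy3 and the labelling protocol Cy5, and which was used is open. The deposited table holds linear intensity values of 24 arrays, all with the same median. How they were scaled is not stated. Between 0% and 5.37% of an array's values lay at or below 0. Neither scanner nor background correction is stated in the sources. Intensities under the 5th percentile of all values (38.8) were set to it and log2 was taken. Means over the 3 arrays of an animal entered the tests, with animals as replicates. Of the 20377 rows with a symbol, 18213 already had a current one in a RefSeq table of GRCm38.p6. Another 2126 had a synonym of 1 gene and were updated, and 38 had neither and were kept. The row of highest mean stood for a gene. The tests used lmFit and eBayes of limma 3.58.1 (R 4.3.3), with Benjamini-Hochberg adjustment over 17742 genes and a threshold of 0.05. Levels up to 125 (the highest 5th percentile among arrays) were taken as dim. The fit was also tested on simulated data. The number of animals, not a counting depth, limits precision, and whether animals came from separate litters is not given.

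Members and lists were chosen with earlier results of these data known. Named genes were Hira, members past the threshold, the 4 of smallest p and those of highest and lowest level in each role, and other cell cycle genes past the threshold or, in a list with none, the 2 of smallest p; others are named for their values. Across animals, deviations of same-numbered arrays from their animal's mean correlated at -0.63 to 0.75, with a median of 0.042. The median for arrays of different number was -0.017. Whether some same-numbered arrays shared a batch was not tested, and the main fit did not use the number. Alternatives covered normalization, the floor, dim genes, rows of a gene, hybridisations, variance models, the series of animal numbers in the labels and leaving out each animal. Leaving out the 2 arrays with the highest background (control animals 3 and 4, hybridisation 1) was chosen after seeing the data.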

Additional observations from a re-analysis of the deposited data

Results flagged for a closer look

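Of 80 groups of 4 animals tested, 6 held an animal whose gap to the nearest of the others passed Dixon's 95% limit, where chance gives about 1 in 20. Cdk2 was highest in control animal 1 (10.785, log2; the others 10.27 to 10.33), and its difference was -0.34 without that animal. Mcm4 was lowest in HiraCKO animal 3 (10.24; the others 10.36 to 10.38). Cdk10 was highest in HiraCKO animal 2 (11.15; the others 10.92 to 10.94). Ccna1 was lowest in control animal 2 (7.41; the others 7.61 to 7.62). Ccnl2 was lowest in HiraCKO animal 3 (7.08; the others 7.22 to 7.24). Rfc3 was highest in HiraCKO animal 2 (9.73; the others 9.19 to 9.28). None of the 4 members that passed the test was among them.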

How the results depend on the processing

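Rrm2, Kif11, Cdk14 and Mcm2 kept their direction in all 27 other settings. For many settings this was fixed in advance. The groups did not overlap in these genes, so leaving out 1 animal or taking 1 series alone cannot turn the sign. An intensity trend or a random block left the difference as it was. The 3 higher and 1 lower members became 8 and 5 with quantile normalization and 8 and 4 with cyclic loess. With all arrays and the animal as a random block they became 6 and 7, and likewise with the hybridisation number as a replicate block besides. Array weights gave 6 and 7, and an intensity trend with robust variances 5 and 2. Calls over all genes rose as well, from 1647 to 2569 with quantile normalization and 2463 with cyclic loess. They rose to 3149 with the random block, 2978 with the replicate block besides, 3609 with array weights and 2048 with the trend. The lower count was 3 with dim genes left out, with a higher floor or with a block for the series of animal numbers. It was 2 with the median of hybridisations, an added constant, without hybridisation 3 or without the 2 arrays of highest background. The higher count moved too: Cdk10 was added with dim genes left out and with the series block, and Mki67 with the mean of rows. Kif11 was lost without hybridisation 2, and Rrm2 without hybridisation 3. In the series of lower animal numbers alone 0 and 0 members passed (limma; 4 and 4 at an unadjusted p under 0.05), and in the series of higher numbers 2 and 0 (7 and 4). The 3 higher and 5 lower other cell cycle genes became 4 and 9 with quantiles, 4 and 8 with loess, 7 and 12 with the random block, 7 and 11 with the replicate block, 4 and 12 with array weights, 2 and 3 with every row as a feature and 1 and 3 with the median of hybridisations. They became 1 and 4, 3 and 0 and 1 and 6 without hybridisation 1, 2 and 3 (limma; 6 and 12 at an unadjusted p under 0.05 without hybridisation 2), and 0 and 0 in either series alone (6 and 10, and 9 and 12, at an unadjusted p under 0.05). Leaving out each animal gave 2 to 4 higher and 0 to 2 lower members (0 without HiraCKO animal 3 or control animal 4; limma, 6 and 8 at an unadjusted p under 0.05), and 1 to 2 higher and 0 to 3 lower other genes (0 without HiraCKO animal 3; 12 at an unadjusted p under 0.05). The member median ranged from -0.053 to 0.0023 without 1 animal and was 0.028 with cyclic loess, where the median of all genes was -0.0026. The Hira difference ranged from -0.31 to -0.047 without 1 animal and passed in no setting.

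Some small differences that never passed turned sign. Ccnd3 (-0.026) was 0.031 with quantile normalization, 0.040 with cyclic loess, 0.21 with the mean of its rows, 0.0065 with the median of hybridisations, 0.054 without hybridisation 3, 0.16 in the series of higher numbers and -0.083 to 0.037 without 1 animal. Mcm8 (0.024) was -0.059 with the median of hybridisations, -0.013 without hybridisation 2, -0.044 with array weights, -0.10 in the series of higher numbers and -0.054 to 0.115 without 1 animal. Ccna2 was -0.0070 and Ccnt2 -0.11 in the series of lower numbers, and Cdk19 ranged from -0.051 to 0.11 without 1 animal. The causes were not tested. Low signal limits Cdk1, Ccnb2, Ccnb3 and Top2a, and the 2 animals per group of a series limit its calls.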
